A study of Mus musculus with 2 samples.

Results

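The MEF2 transcription factors are the 4 genes Mef2a, Mef2b, Mef2c and Mef2d, taken by gene name from the transcript models of both libraries, out of 16310 annotated genes that had a read. Models of every class were taken, 68 with 218 reads in replicate 1 and 61 with 246 reads in replicate 2, and they were matched between the libraries by intron chain. The study measured heart tissue of female B6CASTF1/J mice, the F1 of a C57BL/6J and a CAST/EiJ mouse, at 14 days of age, by long-read sequencing of cDNA from total RNA (2 µg per library). It had 2 libraries of 1 group and compared no genotype, treatment or age. Both carry the same donor identifier and are numbered as biological replicates, and both library descriptions name 3 females while the biosample note of replicate 2 names 1, so whether they came from separate or pooled animals is unclear. The p-values below therefore cover counting error, and differences from library to library may be technical.

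MEF2 proteins bind DNA through a MADS domain and the MEF2 domain next to it, as homodimers or heterodimers, and switch on muscle genes together with partners such as GATA4 and NKX2-5. Class IIa histone deacetylases bind and silence them, and calcium-dependent kinases and calcineurin release them. Their transcripts are spliced alternatively behind the DNA-binding exons: a pair of mutually exclusive alpha exons, a short beta exon within the activation region, and in Mef2c a gamma segment at the start of the last exon that represses transcription when it is included. In skeletal muscle, the Mef2d protein with alpha2 is known to escape the phosphorylation that recruits histone deacetylases to the alpha1 form.

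The alpha exons are shown because the choice between them separated the genes most clearly after the beta exon. All exons below were read from the GENCODE M21 transcripts on mm10, 5′ to 3′ on the strand of the gene, and alpha1 names the exon of the pair that comes first. In an alignment of the 5 exons, capitals mark the 67 bases of alpha1 that are the same in all 3 genes and the 87 bases of alpha2 that are the same in Mef2c and Mef2d.
Mef2a alpha1, chr7:67268269-67268400, minus strand, 132 bases: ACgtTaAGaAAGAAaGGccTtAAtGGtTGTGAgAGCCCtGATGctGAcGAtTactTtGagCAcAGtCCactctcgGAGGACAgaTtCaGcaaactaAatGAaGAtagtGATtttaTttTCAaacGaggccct
Mef2c alpha1, chr13:83625265-83625408, plus strand, 144 bases: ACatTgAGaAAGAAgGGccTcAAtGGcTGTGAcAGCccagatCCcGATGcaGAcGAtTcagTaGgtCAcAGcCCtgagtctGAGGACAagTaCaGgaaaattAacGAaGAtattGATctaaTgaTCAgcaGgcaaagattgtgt
Mef2d alpha1, chr3:88158034-88158171, plus strand, 138 bases: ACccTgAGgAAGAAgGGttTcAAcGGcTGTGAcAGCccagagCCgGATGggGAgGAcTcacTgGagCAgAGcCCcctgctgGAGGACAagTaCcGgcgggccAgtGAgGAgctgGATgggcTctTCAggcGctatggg
Mef2c alpha2, chr13:83625470-83625607, plus strand, 138 bases: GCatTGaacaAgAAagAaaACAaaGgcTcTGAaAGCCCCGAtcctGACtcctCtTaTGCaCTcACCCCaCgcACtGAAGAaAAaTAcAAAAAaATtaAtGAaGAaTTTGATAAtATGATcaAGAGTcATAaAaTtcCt
Mef2d alpha2, chr3:88158221-88158355, plus strand, 135 bases: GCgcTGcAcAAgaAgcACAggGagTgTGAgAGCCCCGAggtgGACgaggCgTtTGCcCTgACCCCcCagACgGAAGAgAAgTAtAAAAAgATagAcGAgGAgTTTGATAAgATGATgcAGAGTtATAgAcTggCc
Exons of the same kind in different genes were identical at 53.2% to 63.2% of aligned columns over 4 pairs, with a median of 62.4%. The alpha1 and alpha2 exons of a single gene were identical at 49.3% in Mef2d and 61.8% in Mef2c. Each exon shown has a length that is a multiple of 3, so exchanging alpha1 and alpha2 of Mef2c or Mef2d keeps the reading frame.

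The beta exons are shown with 12 bases of the coding exon on either side in lower case and the beta exon itself in capitals.
Mef2a beta, chr7:67244521-67244544, minus strand, 24 bases: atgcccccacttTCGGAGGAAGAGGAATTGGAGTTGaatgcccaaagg
Mef2c beta, chr13:83654598-83654621, plus strand, 24 bases: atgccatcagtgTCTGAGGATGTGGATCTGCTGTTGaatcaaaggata
Mef2d beta, chr3:88161781-88161801, plus strand, 21 bases: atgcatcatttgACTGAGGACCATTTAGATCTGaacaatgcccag
The 24-base exons of Mef2a and Mef2c share 17 of 24 bases. The gamma segment of Mef2c is shown because it is formed by an alternative splice acceptor of the last exon, which was looked for in Mef2c alone.
Mef2c gamma, chr13:83662307-83662402, plus strand, 96 bases: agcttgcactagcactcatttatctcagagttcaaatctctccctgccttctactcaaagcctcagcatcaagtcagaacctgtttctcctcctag

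Mef2a, Mef2d and Mef2c were detected in both libraries, and Mef2b was not. Reads were summed over all classes of model except genomic (unspliced or unmatched reads within a gene) and scaled to CPM (counts per 1e6). Mef2a (ENSMUSG00000030557.17; chromosome 7, 67231163 to 67372858, minus strand) had 86 reads in replicate 1 and 142 in replicate 2, or 100 CPM (95% Clopper-Pearson interval 80.2 to 124) and 153 CPM (129 to 181). Mef2d (ENSMUSG00000001419.17; chromosome 3, 88142372 to 88172086, plus strand) had 47 and 71 reads, or 54.8 CPM (40.2 to 72.8) and 76.6 CPM (59.8 to 96.7). Mef2c (ENSMUSG00000005583.16; chromosome 13, 83504034 to 83667080, plus strand) had 23 and 28 reads, or 26.8 CPM (17.0 to 40.2) and 30.2 CPM (20.1 to 43.7). The CPM values of these 3 genes did not overlap in the pair of libraries, with means of 127 ± 37.5 for Mef2a, 65.7 ± 15.5 for Mef2d and 28.5 ± 2.41 for Mef2c (SD, n = 2). Of the family's reads Mef2a took 55.1% and 58.7%, Mef2d 30.1% and 29.3%, and Mef2c 14.7% and 11.6%.

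Divided by transcript length, the order of levels was less sharp, but 1 read stands for 1 cDNA. The division therefore lowers genes with longer transcripts and does not correct a length bias in these counts. Mean annotated lengths were 4517 bases for Mef2a, 3498 for Mef2c and 2901 for Mef2d. The Mef2c length rests on 7 and 5 reads of 1 annotated form, and the Mef2d length on 9 and 12 reads. Per kilobase of the annotated forms seen, Mef2a stood at 22.2 and 33.9 CPM per kilobase, Mef2d at 18.9 and 26.4, and Mef2c at 7.66 and 8.64. On this scale the values of Mef2a and Mef2d overlapped between the libraries, and those of Mef2c lay below both. In heart tissue as a whole, fewer cells that express a gene and less RNA per cell cannot be told apart. Among the 15048 genes with a read outside the genomic class, 1279 had a higher mean CPM than Mef2a, 2519 than Mef2d and 4804 than Mef2c.

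Mef2b (ENSMUSG00000079033.10; chromosome 8, 70139711 to 70167488, plus strand) is the family member best known from germinal centre B cells. It had 0 reads in replicate 1, where a count of 0 allows up to 3.50 CPM, and 1 read in replicate 2, or 1.08 CPM with a 95% interval up to 6.01. That read was a new combination of 13 exons whose first exon ended at 70139772, the first exon of a longer annotated Mef2b transcript. Genomic models named for Mef2b held 2 and 3 further reads, each in 1 unspliced stretch between 70139711 and 70141545. This stretch and the first exon of the spliced read lie within Borcs8, a gene of lysosome positioning on the same strand (chromosome 8, 70139499 to 70147319, with 26 and 22 reads). Which gene the spliced read and the genomic reads came from was not tested. None of 4 B lymphocyte markers reached 3 reads in both libraries, and their sum was 9.32 and 5.40 CPM.

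Many MEF2 reads fell outside the annotated transcripts. Of the 103 and 142 Mef2a reads of all classes, 42 (40.8%) and 41 (28.9%) were on annotated transcripts, and 29 (28.2%) and 59 (41.5%) on new combinations of known splice sites. For Mef2c, 7 of 29 (24.1%) and 5 of 29 (17.2%) reads were annotated, and 13 (44.8%) and 18 (62.1%) were new combinations. Of the 84 and 71 Mef2d reads, 9 (10.7%) and 12 (16.9%) were annotated, and 20 (23.8%) and 9 (12.7%) were new combinations. Over all genes, annotated models held 75.6% and 76.0% of reads and new combinations 5.48% and 5.30%. In each of the 3 genes the annotated share lay below that of all genes in both libraries. The share over all genes is pooled over reads, so genes with many reads weigh most in it. Genes of like depth were not compared. New splice sites were rare, with 3 and 4 reads in Mef2a, 2 and 3 in Mef2c, and 5 and 4 in Mef2d.

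**Figure D1:**
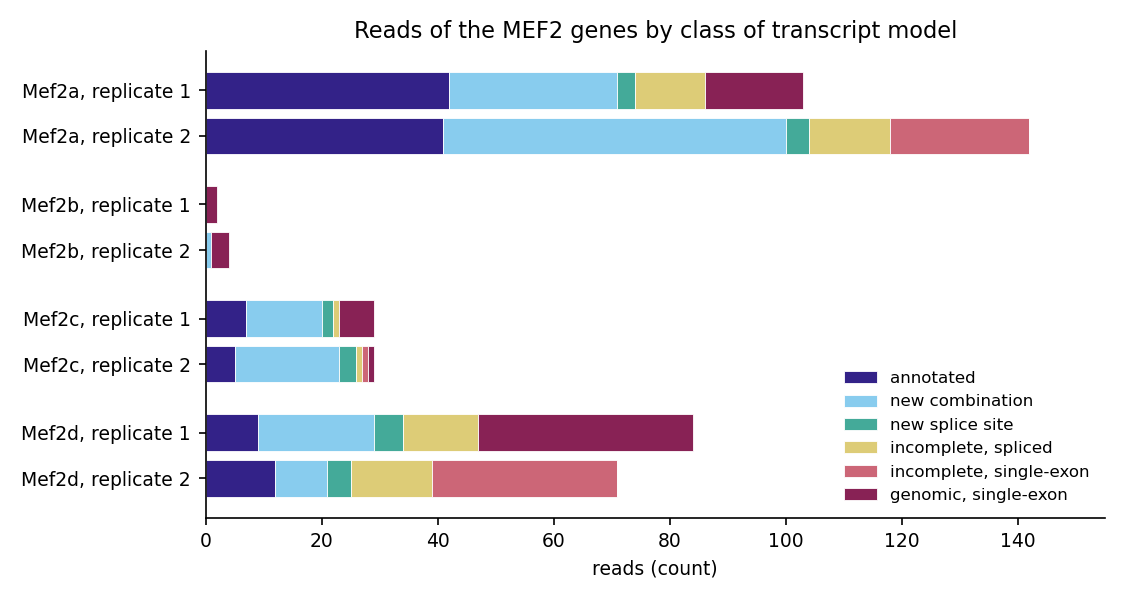
Reads of each MEF2 gene in each library (horizontal axis, count of reads of all classes), divided by class of transcript model. The single-exon reads of Mef2a and Mef2d are genomic in replicate 1 (17 and 37 reads) and incomplete in replicate 2 (24 and 32 reads).

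Single-exon reads at the 3′ end were given different classes in the libraries. In Mef2a, 17 single-exon reads of replicate 1 were genomic (chromosome 7, 67231163 to 67233833), while 24 of replicate 2 were incomplete (67231163 to 67235228). In Mef2d, 37 of replicate 1 were genomic (chromosome 3, 88168252 to 88172086), and 32 of replicate 2 were incomplete (88168038 to 88172086), and both of these models run through the last intron unspliced. Neither gene had a single-exon read of the other class in either library. Among 520 genes with at least 10 single-exon reads of these classes in both libraries, 34 switched from genomic to incomplete in this way and 34 in the opposite direction, 13.1% in all. The class decides whether the reads enter the gene's CPM.

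No MEF2 gene was called as different between the libraries. With genomic reads left out, Mef2a had a log2 ratio of 0.61 (replicate 2 over replicate 1, 95% interval 0.22 to 1.02), with p = 0.0018 before adjustment and an adjusted p of 0.0847 in the two-sided exact binomial test over 9433 genes. Mef2d had a log2 ratio of 0.48 (adjusted exact p = 0.609) and Mef2c one of 0.17 (adjusted exact p = 1). The test called 162 of 9433 genes, or 1.72%, against 0 of the 3 MEF2 genes tested, of which 1 had an unadjusted p under 0.05. Once genomic reads were counted, Mef2a stood at 116 and 148 CPM and its ratio was 0.35 (adjusted exact p = 0.586), while Mef2d stood at 94.9 and 74.0 CPM and its ratio turned to -0.36 (adjusted exact p = 0.726). Mef2c had 29 reads in each library on that count, and its ratio was -0.12. With all single-exon models left out, a choice made after the data had been seen, the ratios were 0.34 for Mef2a, 0.12 for Mef2c and -0.38 for Mef2d. The directions thus depend on which models are counted, for Mef2a with annotated models alone (-0.16), and the part of read class in the Mef2a ratio was not tested beyond these counts.

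**Figure D2:**
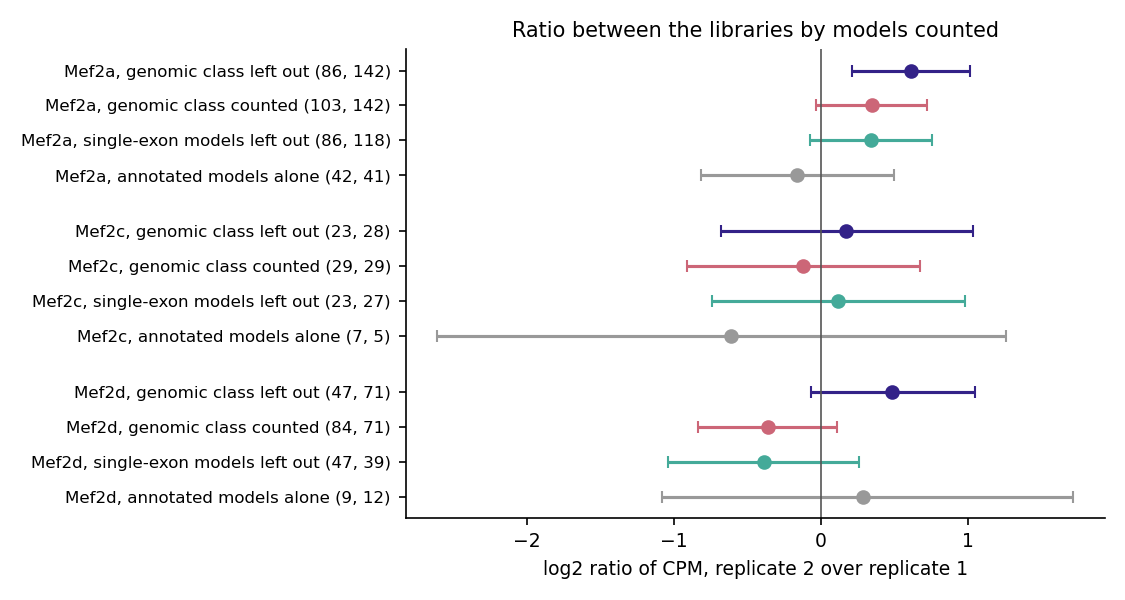
Log2 ratio of CPM, replicate 2 over replicate 1 (horizontal axis), of Mef2a, Mef2c and Mef2d under 4 choices of models, with exact 95% intervals as bars and the reads of replicates 1 and 2 in brackets. Mef2d lies at 0.48 with genomic models left out and at -0.36 with them counted, and for Mef2a the interval lies above 0 under the first choice alone.

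Among reads with an alpha exon, Mef2a used both kinds, Mef2d mostly alpha1, and Mef2c alpha1 in all but 1 read per library. Of reads that carry an alpha exon, 41 of 77 Mef2a reads in replicate 1 (53.2%, 95% interval 41.5 to 64.7%) and 63 of 102 in replicate 2 (61.8%, 51.6 to 71.2%) had alpha2. In Mef2d it was 8 of 32 (25.0%, 11.5 to 43.4%) and 8 of 28 (28.6%, 13.2 to 48.7%). Mef2c had 1 of 20 (5%, 0.127 to 24.9%) and 1 of 24 (4.17%, 0.105 to 21.1%). The mean alpha2 share was 57.5% ± 6.02 in Mef2a, 26.8% ± 2.53 in Mef2d and 4.58% ± 0.589 in Mef2c (SD, n = 2). The library values did not overlap between genes. The intervals of Mef2c and Mef2d overlapped in both libraries, and those of Mef2a and Mef2d in replicate 1. The Mef2c share rests on 1 alpha2 read in each library. Of 283 reads with an alpha exon in the 3 genes, 0 carried both.

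The difference in alpha choice was tested between genes within each library, with a two-sided Fisher's exact test adjusted over 12 tests (3 pairs of genes, both exons, both libraries). Mef2a exceeded Mef2c by 48.2 percentage points in replicate 1 (adjusted exact p = 1.43e-04) and 57.6 in replicate 2 (2.51e-07). Mef2a exceeded Mef2d by 28.2 percentage points (adjusted exact p = 0.0159) and 33.2 (0.00421). Mef2c minus Mef2d was -20 percentage points in replicate 1, which did not pass (adjusted exact p = 0.154), and -24.4 in replicate 2, which did (0.0375). These tests compare reads of 1 library, which are not independent animals.

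Reads that skipped both alpha exons were seen in Mef2c, 3 of 23 (13.0%, 2.78 to 33.6%) and 3 of 27 (11.1%, 2.35 to 29.2%). None of 180 Mef2a reads and none of 62 Mef2d reads across this stretch skipped them, counts of 0 that allow up to 1.67% and 4.84%. Whether Mef2c differs from the other genes in skipping was not tested.

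The beta exon was included in most Mef2a and Mef2d reads and in no Mef2c read. In Mef2a 61 of 85 reads in replicate 1 (71.8%, 61.0 to 81.0%) and 86 of 110 in replicate 2 (78.2%, 69.3 to 85.5%) held it. In Mef2d it was held by 26 of 40 (65.0%, 48.3 to 79.4%) and 20 of 30 (66.7%, 47.2 to 82.7%). In Mef2c 0 of 23 and 0 of 27 reads held it, and the 0 of 50 over both libraries allows a share of up to 6%. Mef2a and Mef2d differed from Mef2c in both libraries, by 71.8 and 78.2 percentage points for Mef2a (adjusted exact p = 5.32e-10 and 9.50e-14) and by 65.0 and 66.7 for Mef2d (2.51e-07 and 1.02e-07). Between Mef2a and Mef2d the share differed by 6.76 and 11.5 percentage points, which did not pass in either library (adjusted exact p = 0.532 and 0.252). Of the annotated Mef2c transcripts, 6 hold the beta exon with an alpha exon, so it is known to the annotation and was not seen here.

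**Figure D3:**
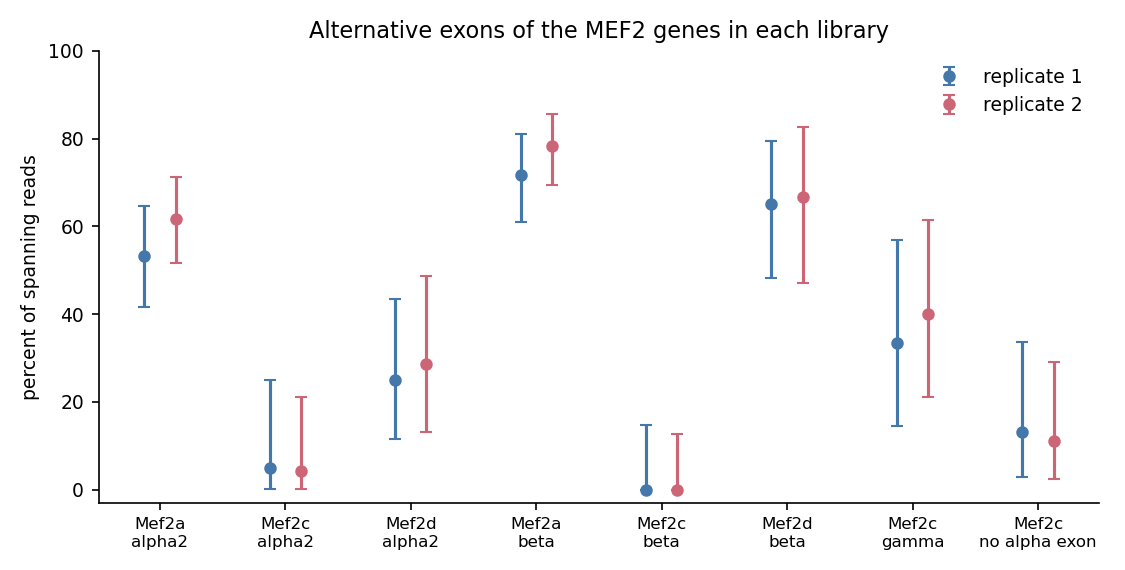
Share of spanning reads (vertical axis, percent) that carry alpha2, beta, gamma or no alpha exon, by gene, in replicates 1 and 2, with exact 95% Clopper-Pearson intervals as bars. Alpha2 lies at 53.2% and 61.8% in Mef2a and at 25.0% and 28.6% in Mef2d, and the beta exon is at 0 in both Mef2c libraries.

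Counting annotated models alone gave other shares, and the annotation of Mef2a and Mef2d holds no transcript with alpha2 and beta together. On that count alpha2 took 13 of 42 and 8 of 38 Mef2a reads and beta 52.4% and 51.2%. In Mef2d alpha2 was in 1 of 9 and 1 of 12 annotated reads and beta in 5 of 9 and 7 of 12.

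Long reads show both choices on 1 molecule. In replicate 1, 76 Mef2a reads crossed both, of which 28 had alpha2 with beta, 25 alpha1 with beta, 13 alpha2 without beta and 10 alpha1 without beta. In replicate 2 the 100 such reads were divided 54, 25, 8 and 13 in that order. Beta was present in 68.3% of alpha2 reads and 71.4% of alpha1 reads in replicate 1, and in 87.1% and 65.8% in replicate 2. The libraries differed in direction, and the link between the choices passed in neither (two-sided Fisher's exact test, p = 0.807 and 0.0211, adjusted over 4 tests 0.807 and 0.0845). In Mef2d, beta was present in 7 of 8 alpha2 reads and 16 of 24 alpha1 reads in replicate 1, and in 6 of 8 and 12 of 19 in replicate 2 (adjusted exact p = 0.772 and 0.807). The Mef2d values rest on 8 alpha2 reads in each library.

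**Figure D4:**
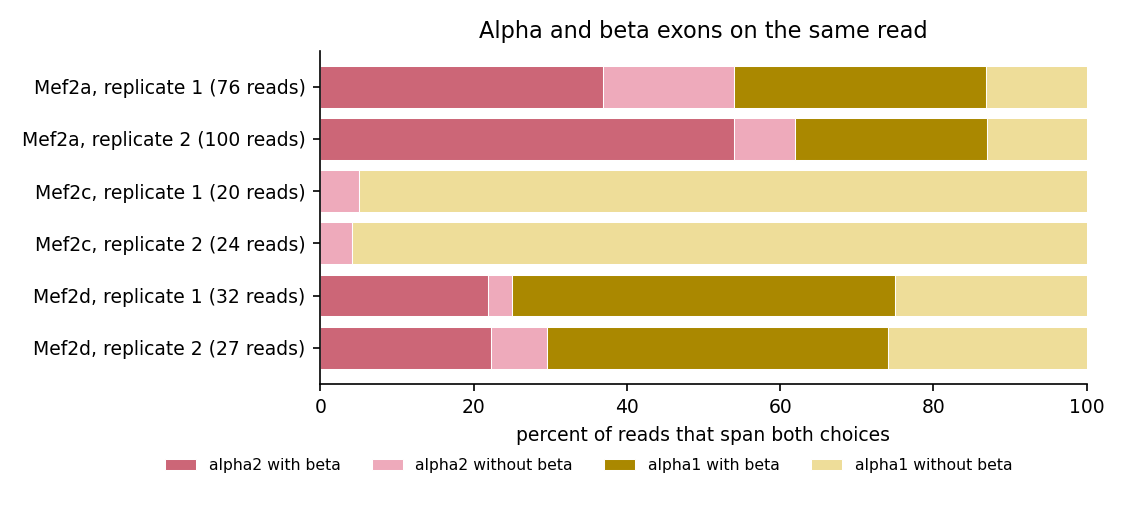
Share of reads (horizontal axis, percent) with each combination of alpha and beta exons on the same read, by gene and library, over the reads that span both choices. Alpha2 with beta, a combination missing from the annotation of Mef2a and Mef2d, is in 36.8% and 54.0% of Mef2a reads and 21.9% and 22.2% of Mef2d reads.

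The gamma segment was included in a minority of Mef2c reads. Of reads that ended with an annotated choice, 7 of 21 in replicate 1 (33.3%, 14.6 to 57.0%) and 10 of 25 in replicate 2 (40%, 21.1 to 61.3%) included it, a mean of 36.7% ± 4.71 (SD, n = 2). A further 2 reads in each library used another acceptor at the last exon.

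None of the members' exons that could be tested was called as different between the libraries. The alpha2, beta and gamma choices of Mef2c were not among them. The two-sided Fisher's exact test on exons whose mean inclusion lay between 5 and 95% and that at least 20 reads spanned in both libraries took in 12 exons of Mef2a, Mef2c and Mef2d, with a lowest p of 0.199 and adjusted p = 1 throughout. Over all genes it called 0 of 3848 exons, or 0%, with 159 at an unadjusted p under 0.05. With incomplete models left out it called 6 of 3621, or 0.166%, none of them in a MEF2 gene. Besides the alpha and beta exons, the tested exons included a UTR exon of Mef2a, a Mef2c exon of 193 or 196 bases that holds UTR and coding sequence, and a 307-base coding exon of Mef2d. The Mef2a UTR exon (chromosome 7, end 67349921) was 53 bases long in 84.0% and 89.0% of reads and otherwise 73 bases, through a donor 20 bases farther on in the transcript. The 196-base form of the Mef2c exon (chromosome 13, 83575535 to 83575730), which starts 3 bases before the other, was in 42.9% and 48.0%.

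The last intron of Mef2d, 287 bases on chromosome 3 from 88168345 to 88168631, was retained in part of the reads. Among models of at least 2 exons it was kept in 11 of 41 spanning reads in replicate 1 (26.8%, 14.2 to 42.9%) and 5 of 38 in replicate 2 (13.2%, 4.41 to 28.1%), and these intervals overlap. The single-exon models that cover it hold 37 and 32 further reads. With them counted, a choice made after the data had been seen, it was kept in 48 of 78 (61.5%, 49.8 to 72.3%) and 37 of 70 (52.9%, 40.6 to 64.9%). The share of Mef2d reads with the intron thus depends on these single-exon reads, for which the files give the ends of the model and not of each read.

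The leading Mef2a form was missing from the annotation. It joins alpha2 and beta in 12 exons and held 20 of 74 usable reads in replicate 1 (27.0%) and 46 of 104 in replicate 2 (44.2%), a mean of 35.6% ± 12.2 (SD, n = 2). Usable reads are spliced reads outside the incomplete class. Mef2a-208, with alpha1 and beta, held 22 and 21 reads, Mef2a-201, with alpha2 alone, 11 and 8, and Mef2a-204, with alpha1 alone, 7 and 9. Another unannotated form, again with alpha2 and beta but with the 73-base UTR exon, held 5 and 7 reads. The leading form was second to Mef2a-208 in replicate 1 and first in replicate 2. Its share had p = 0.0271 in a two-sided Fisher's exact test between the libraries and adjusted p = 1 over 4387 genes, of which the test called 6, or 0.137%. The median leading share over those genes was 88.8%, and 185 had a lower one than Mef2a.

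In Mef2c, the annotated Mef2c-227, with alpha1 and neither beta nor gamma, held 7 of 22 and 5 of 26 usable reads. Both other recurrent Mef2c forms were unannotated, had alpha1 and the 196-base exon, and held 3 and 4 reads each, 1 with gamma and 1 without. Together 19 Mef2c chains shared the 22 and 26 usable reads. Mef2d was spread over 24 chains, led by Mef2d-203, with alpha1 and beta, at 5 of 34 and 7 of 25 reads, and by an unannotated form with alpha2 and beta at 6 and 3. The leading shares of Mef2c and Mef2d had adjusted exact p = 1 in the same test. Unannotated forms took 43.2% and 60.6% of usable reads in Mef2a, 68.2% and 80.8% in Mef2c, and 73.5% and 52.0% in Mef2d.

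**Figure D5:**
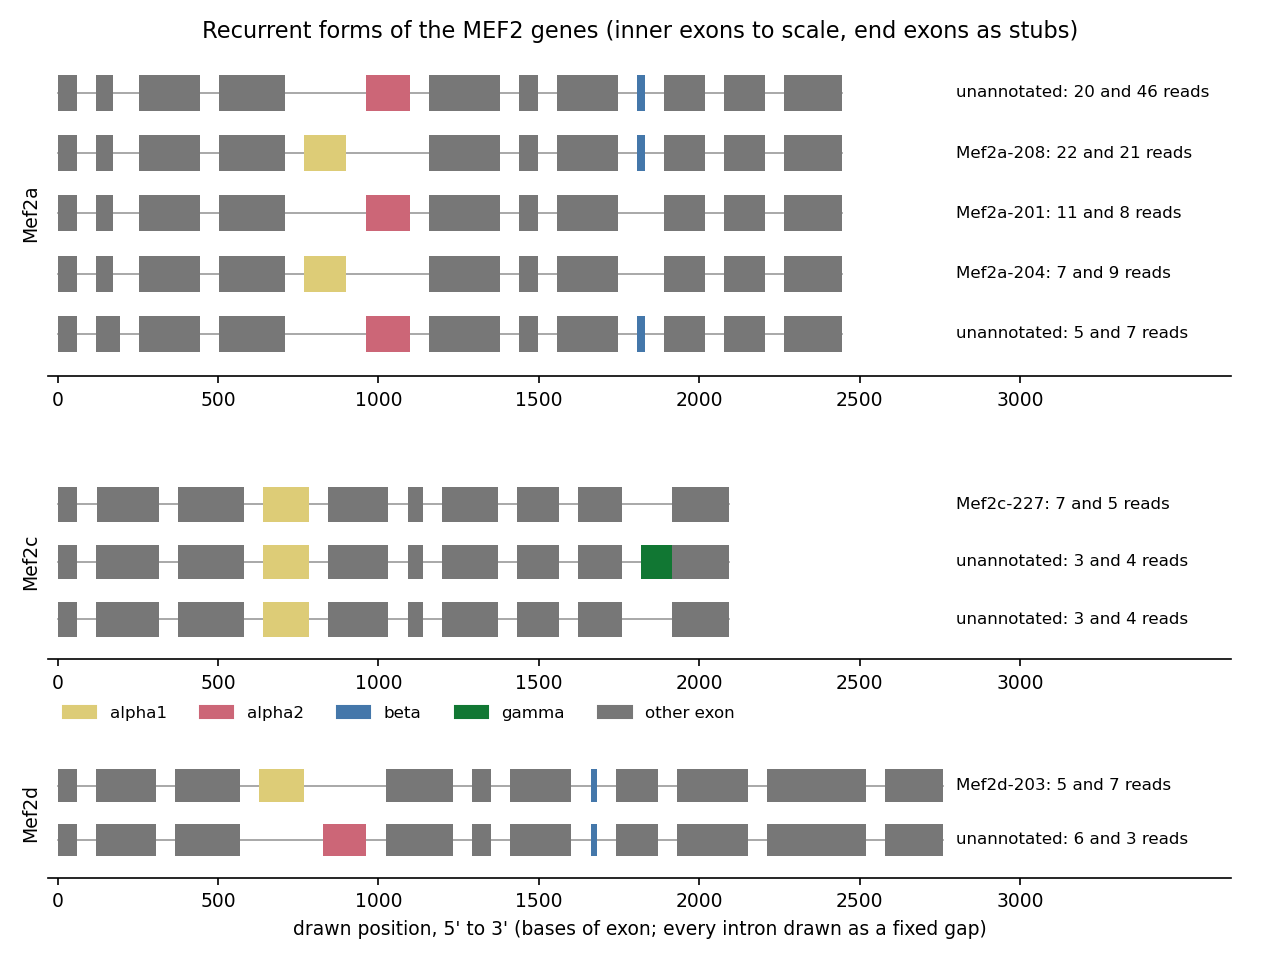
Exons of the 10 recurrent forms, those with at least 3 reads in both libraries, drawn 5′ to 3′ with inner exons to scale (horizontal axis, drawn position in bases), introns as fixed gaps and end exons as stubs. The reads of replicates 1 and 2 stand beside each form, and the top Mef2a form, with 20 and 46 reads, joins alpha2 and beta.

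Most usable reads of Mef2a and Mef2c shared 1 first exon, while those of Mef2d were more divided. In Mef2a, 73 of 74 and 100 of 104 usable reads had the first exon that ends at position 67372713, next to the annotated start at 67372858. In Mef2c, 21 of 22 and 23 of 26 had the first exon that ends at 83525080, and 1 read in each library had a downstream one that ends at 83573774. Mef2d used the first exon ending at 88142674 in 19 of 34 (55.9%, 37.9 to 72.8%) and 16 of 25 reads (64.0%, 42.5 to 82.0%). A longer one ending at 88143499 was in 8 and 7. The ends of each read are not given, so first exons are those of the models. The Mef2a promoter is shown because nearly all its usable reads had the first exon at this start. It also holds a match to the MEF2 site itself. RefSeq windows of 250 bases before to 50 after a start (GRCm38.p6) were matched for all 4 genes, 6 windows in all, and searched on both strands for the consensus MEF2 site. The Mef2c windows do not cover 83524613, the most upstream start of the first exon that most Mef2c reads used. The match, in capitals, lies across the start of Mef2a, is 1 window of the 6, and the consensus occurs in 3.19% of the 32851 windows of all genes.
Mef2a promoter, chr7:67372809-67373108, minus strand: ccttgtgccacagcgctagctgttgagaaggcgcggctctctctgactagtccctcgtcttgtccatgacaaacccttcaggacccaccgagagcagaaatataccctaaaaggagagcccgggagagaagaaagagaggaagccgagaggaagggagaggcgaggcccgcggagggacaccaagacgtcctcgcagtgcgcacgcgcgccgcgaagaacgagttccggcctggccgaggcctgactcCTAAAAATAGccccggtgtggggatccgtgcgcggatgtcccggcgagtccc
The match describes letters only, and no binding was measured.

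Annotated genes overlap Mef2a, Mef2b and Mef2d. Lysmd4, on the opposite strand of Mef2a, had 54 and 70 reads of all classes. Gm44667 and Gm44668, within Mef2a on its strand, had 0 reads in both libraries. The antisense gene 1700113A16Rik at the 3′ end of Mef2d had 1 read in each library. Reads were assigned by the strand the models carry, and how that strand was set for single-exon reads is not stated.

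The factors nearest in level to the members, from a list of 20 cardiac transcription factors, were Gata6 and Gata4 for Mef2a (121 ± 33.5 and 144 ± 8.84 CPM; SD, n = 2). For Mef2d they were Srf (58.6 ± 10.3), the MADS-domain relative of MEF2, and Klf15 (88.4 ± 36.5). For Mef2c they were Esrrg (25.7 ± 1.77) and Hand2 (24.2 ± 5.28). With 2 libraries of 1 group, no likeness of pattern could be measured. Klf15, a regulator of metabolism and growth, fell from 114 to 62.6 CPM between replicates 1 and 2 (log2 ratio -0.87, adjusted exact p = 0.0218).

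Partners and regulators of MEF2 were mostly detected. Of 30 listed genes, 23 had at least 3 reads in both libraries and 21 could be tested. The test called 0 of them, beside 1.72% of all genes, with 0 at an unadjusted p under 0.05. Their median log2 ratio was 0.018, beside 0.0047 over all genes tested. The highest were the calcium-dependent kinase Camk2d (212 and 240 CPM), the partner factors Nkx2-5 (162 and 172) and Gata4 (138 and 150), and Ppp3ca, the catalytic subunit of calcineurin (134 and 113). Among the class IIa histone deacetylases, Hdac7 had 48.9 and 42.1 CPM, Hdac5 37.3 and 37.8, Hdac4 11.7 and 21.6, and Hdac9 14.0 and 9.71. The coactivators Ep300 and Crebbp had 1 and 0 reads and 4 and 2 reads, at the floor. With genomic models counted, Crebbp reached the 10 reads needed for the test and Ep300 did not. The effect of transcript length on these counts was not tested.

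Target genes of MEF2 in striated muscle were all detected, 18 of 18. Of the 17 tested, 1 was higher and 2 were lower in replicate 2, or 3 called beside the 1.72% of all genes, with 5 at an unadjusted p under 0.05. The 3 called genes had 1557 to 9132 reads per library, a depth at which a test of counting error passes small ratios. The share of all genes was not matched for depth. The median log2 ratio of the 17 target genes was -0.042. The highest were the myosin gene Myh6 (31270.1 and 30799 CPM; log2 ratio -0.022), the creatine kinase gene Ckm, the actin gene Actc1 and the desmin gene Des (2389 and 2155 CPM; log2 ratio -0.15, adjusted exact p = 0.0588). Actc1 rose from 4974 to 5518 CPM (log2 ratio 0.15, adjusted exact p = 1.08e-04), and Ckm fell from 10629 to 9856 (log2 ratio -0.11, adjusted exact p = 7.09e-05). Nppa, the atrial natriuretic peptide gene, fell from 2078 to 1680 CPM (log2 ratio -0.31, adjusted exact p = 3.57e-07). With genomic models counted, Des and the myoglobin gene Mb also passed, for 5 calls in all.

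Regulators of muscle splicing were all detected, 12 of 12, and 0 were called, beside 1.72% of all genes. Among them, 1 had an unadjusted p under 0.05, and the median log2 ratio was -0.028. Qk led with 290 and 344 CPM, before Rbm24 (289 and 274), Mbnl2 (226 and 224) and Rbm20 (106 and 132). Rbfox2, which is known to promote the alpha2 exon of Mef2d in skeletal muscle cells, had 16.3 and 22.7 CPM, and its relative Rbfox1 had 10.5 and 8.63 CPM.

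Replicate 1 held 896941 reads and replicate 2 held 972159, with 12223 and 12825 on spike-in RNAs, so that 1 read was worth 1.17 and 1.08 CPM. Cardiomyocyte markers (Myh6, Tnnt2, Actc1, Ryr2, Pln and Tnni3) were all present, with a sum of 38427 and 38546 CPM. All 5 endothelial, 5 fibroblast, 5 smooth muscle and pericyte and 4 macrophage markers were detected as well, with sums of 475 and 492, 6442 and 6249, 951 and 814, and 193 and 151 CPM. Of 4 neuronal markers, Snap25, Syt1 and Tubb3 were at 0, as were Myh1, Myh4, Tnnt3 and Myog among 6 skeletal muscle markers, where Acta1, which heart also expresses, gave nearly all of 610 and 568 CPM. The part of these other cells in the MEF2 values was not tested.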

How the data were processed

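Long-read RNA sequencing was measured in 2 libraries of heart tissue. The authors deposited, per library, whole-number read counts for each transcript model and the exon coordinates of each model. Per the file headers and the text deposited with them, models were built and classed by TALON on mm10 with GENCODE M21, 1 library at a time. Aligner, filters and read strand: not given in the sources used here. All members, gene lists and tests were chosen with earlier results of these data known.

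Reads were summed per gene, with genomic models and spike-ins left out, and divided by totals of 858071 and 926560 to give CPM. An exact binomial test (two-sided, against the ratio of these totals) ran over all genes with at least 10 reads in all, and Fisher's exact tests ran over all exons with at least 20 spanning reads in each library and over all leading forms with at least 20 usable reads. P-values were adjusted by Benjamini and Hochberg over all features tested at a threshold of 0.05. A quasi-likelihood fit had no residual degrees of freedom. Intervals are exact at 95% and, like the limit of 3 counts for a count of 0, cover counting error only. Incomplete models counted for an exon where they span it. One alpha exon sequence is not reported here. Beta exons were coding cassette exons of at most 30 bases. Named were all 4 members, the 4 highest and all called genes of the 3 lists, overlapping genes, the 2 nearest cardiac factors, and forms with at least 3 reads in both libraries. The histone deacetylases, Ep300, Crebbp, Rbfox1, Rbfox2, Mb and the last intron of Mef2d were named after their values were seen. Scripts were tested on simulated data. Python 3.11.15, scipy 1.17.1, mafft 7.526 and edgeR 4.0.16 (TMM factors, as an alternative) were used.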

Additional observations from a re-analysis of the deposited data

Results flagged for a closer look

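Reads outside the comparisons lay on unannotated single-exon loci opposite 2 members, above the 3 reads that a count of 0 allows. Opposite Mef2a they numbered 8 in replicate 1 and 13 in replicate 2. Most were on 1 locus within the first intron, with 6 reads at chromosome 7, 67363451 to 67370028, and 8 at 67366238 to 67370028. This locus overlaps the annotated gene Gm44668 (67367716 to 67370980), which lies on the strand of Mef2a. How the strand of single-exon reads was set is not stated. Opposite Mef2c there were 2 reads in replicate 1 and 10 in replicate 2. Of these, 2 and 7 lay at chromosome 13, 83656714 to 83658498 and 83656714 to 83660618. The shared coordinate is the 3′ end of these minus-strand models. Their origin was not tested.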

How the results depend on the processing

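Of 98 values recomputed with both libraries, 70 kept their direction, their side of the threshold and their size within the spread. No MEF2 gene became a call under any of the alternatives run. The log2 ratio of Mef2a turned to -0.16 with annotated models alone. That of Mef2c turned to -0.12 with genomic models counted or with every overlapping model on the strand counted, and to -0.61 with annotated models alone. That of Mef2d turned to -0.36 under both of the former and to -0.38 with single-exon models left out, an alternative chosen after seeing the data. With genomic models counted, mean CPM was 3.22 for Mef2b, 31.5 for Mef2c and 84.5 for Mef2d, and 5 target genes were called against 3. With annotated models alone, where fewer reads are counted, CPM was 59.5, 8.66 and 15.0 for Mef2a, Mef2c and Mef2d. On that count the mean alpha2 share was 26.0% in Mef2a, 9.72% in Mef2d and 0% in Mef2c, beta inclusion 51.8% in Mef2a and 56.9% in Mef2d, and the Mef2c shares with gamma, another acceptor or no alpha exon were 0%. With incomplete models left out, Mef2d had alpha2 in 30.3% and beta in 64.1%, and 6 exons of all genes were called against 0. The leading form test called 1 gene with incomplete models counted as forms and 2 with only forms of at least 5 reads in each library, against 6; the cause was not tested. With 2 libraries, leaving out 1 gives the other's value and says nothing about stability. The kept share of the last Mef2d intron, 20.0% in the mean, was 57.2% with single-exon models counted, also chosen after seeing the data. The minimum of spanning reads bears on the exon test alone. No paired analysis was possible because the study has 1 group. Read number limits the exon shares of Mef2c and Mef2d, with 20 to 40 spanning reads per library, and Mef2b allowed none.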
